A study of Mus musculus with 6 samples.

Results

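Arterial-side capillary cells of the mouse heart were selected by their own transcripts from single-cell RNA sequencing of cardiac endothelium. A cell was chosen by the rule that at least 2 of 6 marker genes (Glul, Alpl, Hey1, Slc6a6, Stmn2 and Sox17) had a unique molecular identifier (UMI, the count of a captured transcript). The rule also asked for at most 1 of 8 genes of larger arteries (Fbln5, Gja4, Gja5, Sema3g, Vegfc, Alox12, Col8a1 and Nebl). It asked for 0 UMIs of 7 genes of other vessels or wall cells (Aplnr, Vwf, Npr3, H19, Apln, Ccl21a and Acta2). Cells with both Car4 and Rgcc, genes of the capillary bed, were dropped. In all, 3529 cells met the rule, which is 13.4% of the 26351 barcodes kept (300 genes or more, and no more than 20% of UMIs from mitochondrial genes). They are called members below.

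The hearts came from wild-type C57BL/6 mice of 3 months (young) or 24 months (aged), with 3 libraries of each age. No group carried a transgene, a deletion or a drug, and the labels do not say which or how many animals a library came from. Digested tissue was enriched on beads for CD31 (PECAM-1, an endothelial surface protein) and sorted for CD31 and against GP38 (Pdpn) and CD45 (Ptprc). Cells were then captured in droplets with 10x Genomics V2 chemistry.

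Blood enters the myocardium through arteries and arterioles and reaches the muscle through capillaries, and endothelial cells change their gene programme gradually along that path. Arterial identity is built by Notch signalling and by transcription factors such as Sox17, and Hey1 is a Notch target gene. Capillary cells of the heart take up fatty acids for the muscle with a lipase anchor (Gpihbp1), a fatty acid receptor (Cd36) and carrier proteins (Fabp4). Of the other markers, Glul encodes glutamine synthetase, Alpl the tissue-nonspecific alkaline phosphatase, Slc6a6 the taurine transporter and Stmn2 a microtubule-binding stathmin.

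The 6 libraries held 1183 to 8758 barcodes and 1989311 to 10809370 UMIs. Young replicates 1, 2 and 3 gave 258, 397 and 958 members with 421249, 498162 and 1044178 UMIs. Aged replicates 1, 2 and 3 gave 130, 343 and 1443 members with 183691, 433616 and 1527414 UMIs. Aged replicate 1 was thus the smallest library, and replicate 3 had the most members and total UMIs in either age group. The median UMIs per member averaged 1158 ± 214 for the young and 1073 ± 160 for the aged group (SD over 3 libraries; two-sided exact permutation p = 0.6, where 3 against 3 cannot go below 0.1). That difference changed direction without young replicate 1 (33.8 UMIs more in aged) and without aged replicate 3 (7.42 more).

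The members were endothelial by markers that the rule did not use. At least 2 of 15 pan-endothelial genes were detected in 97.7% to 100% of members per library, and 26 of 3529 members fell short. Pan-endothelial genes summed to 10258 to 11642 CPM (UMIs scaled to a fixed library total, the unit used below) in young and 10644 to 12467 in aged members. Ptprc, the gene of the sorted-out CD45, had 4 UMIs in all young and 5 in all aged members, and Pdpn had 0 and 2. Every gene of the fibroblast list had a UMI in some member. Over all 6 libraries Dcn, Gsn and Pcolce had 221, 186 and 126 UMIs, and Lum and Pdgfra had 26 and 23. Col1a1, Col1a2, Col3a1, Dpt and Tcf21 had 4, 2, 6, 4 and 2. Cardiomyocyte genes summed to 145 to 192 CPM in young and 166 to 221 in aged members, with 240 UMIs of Myl2 and 135 of Tnnt2. Pericyte and smooth muscle genes had few UMIs apart from Rgs5, with 12 of Pdgfrb, 2 of Myh11 and 0 of Cnn1. Macrophage genes such as Lyz2, with 359 UMIs, came almost wholly from young replicate 3 and aged replicates 2 and 3. Erythroid genes varied most, from 123 to 10117 CPM in young and from 32.7 to 13060 in aged members.

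The marker genes themselves chose the cells, so their levels are a description. Exactly 2 markers were detected in 1847 members (52.3%), 3 in 1029, 4 in 478, 5 in 146 and all 6 in 29. Members with exactly 2 made up 47.7% to 50.9% in young libraries and at least 54.1% in each aged library. Slc6a6 with Sox17 was the most frequent exact set (357 members), before Slc6a6 with Stmn2 (335) and Glul with Slc6a6 (306). Slc6a6 was detected in 69.8% to 76.9% of members per library, Glul in 30.8% to 58.4% and Sox17 in 41.5% to 53.5%. Stmn2 was detected in 36.0% to 55.4%, Hey1 in 25.2% to 36.8% and Alpl in 20.9% to 31.7%. By age, Slc6a6 was detected in 69.8% to 72.3% of young and 76.4% to 76.9% of aged members per library. Alpl was detected in 27.0% to 31.7% of young and 20.9% to 24.6% of aged members. The ranges of Glul, Sox17, Stmn2 and Hey1 overlapped between the ages. Droplets also capture free RNA, so the same genes were read in 193 lymphatic endothelial barcodes (Ccl21a and at least 3 lymphatic genes detected), whose median depth of 1228 to 2293 UMIs per library was above the 888 to 1396 of members. There, Slc6a6 was detected in 9.40% of barcodes on average over libraries, Glul in 11.8%, Hey1 in 5.26%, Sox17 in 2.13% and Alpl in 2.02%. Stmn2 stood apart with 34.5% of lymphatic barcodes (up to 54.2% in a library), against 46.3% of members. At 1000 UMIs, 154 lymphatic barcodes were left and Stmn2 was detected in 19.4% of them. Over all kept barcodes, members among them, detection of Slc6a6 averaged 39.7% in young and 44.4% in aged libraries. It averaged 25.0% and 20.7% for Glul, 25.8% and 24.4% for Sox17, and 23.7% and 24.0% for Stmn2. For Hey1 it averaged 14.2% and 15.6%, and for Alpl 13.4% and 9.90%.

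Whether the 6 markers occur together can be read without using membership. Every barcode with at least 1000 UMIs was thinned to 1000 UMIs so that depth was equal. Barcodes were then taken by the clauses on arterial and excluded genes alone, read on the thinned counts. Some of them could thus have failed these clauses at full depth. For all 30 ordered pairs, the second marker was detected more often in cells with the first than in cells without it, in 6 of 6 libraries. Both orders of a pair always share a direction, so they are not separate observations. The 6 markers were also chosen with earlier results of these data known, so these shares are a description. Stmn2 was detected in 36.8% of cells with Hey1 (31.3% to 44.8% over libraries) and in 16.6% of cells without it (12.4% to 21.5%). Alpl was found in 18.1% of Hey1-positive and 7.98% of Hey1-negative cells. Sox17, the arterial transcription factor, was found in 33.2% of Glul-positive and 19.1% of Glul-negative cells. The weakest relative gaps involved Slc6a6, which was frequent in all cells: 52.3% with and 38.2% without Hey1.

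**Figure D1:**
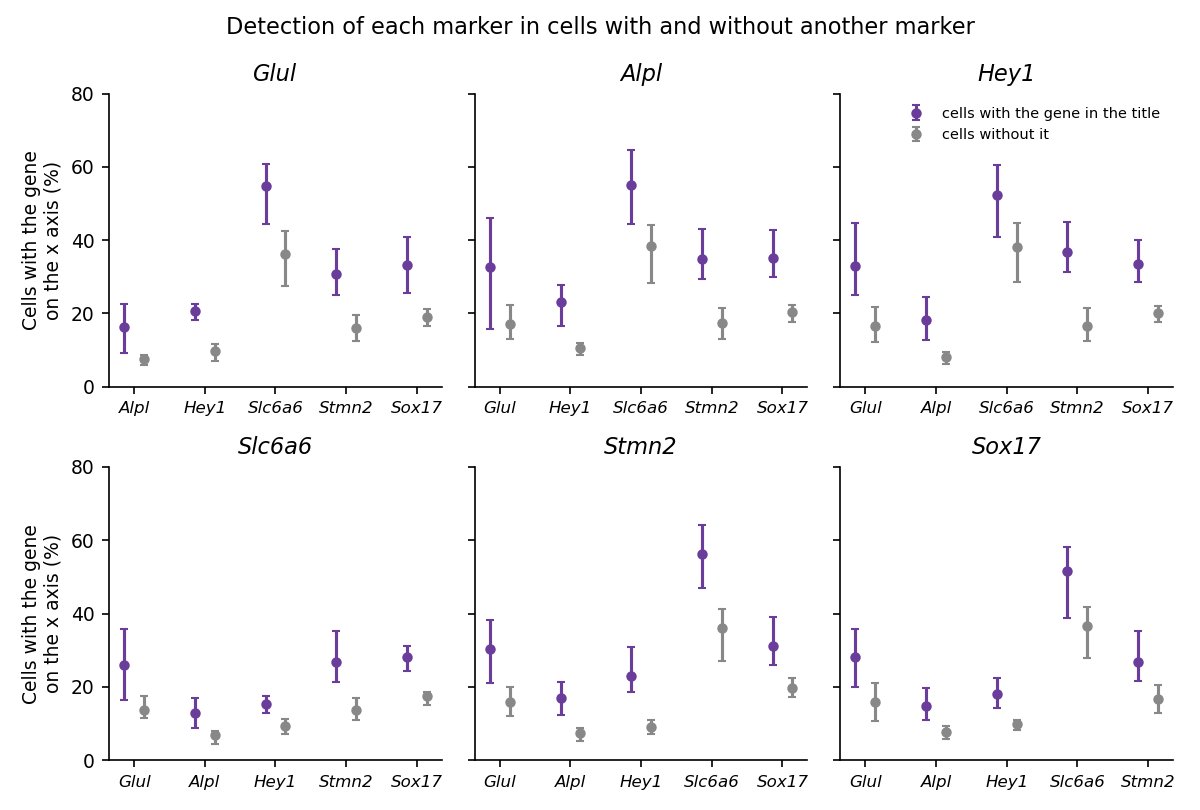
Share of barcodes (%, thinned to 1000 UMIs) in which each marker on the x axis was detected, in barcodes with (purple) and without (grey) the marker in the panel title. Points are means of 6 libraries and bars run from the lowest to the highest library. The purple mean lies above the grey mean in all 30 ordered pairs, where both orders of a pair share a direction.

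Mean levels of the genes shown here changed in steps across the rule's edge. Such means cannot tell a continuous range from a mixture of separate cell groups, which was not tested. Just outside, 3140 barcodes met every clause but had 1 marker, with median depths of 782 to 1295 UMIs per library against 829 to 1356 in the members with exactly 2. Aqp1, a water channel of capillaries outside the rule, averaged 2064 ± 693 CPM in the barcodes with 1 marker (SD, n = 6 libraries). It averaged 1183 ± 390 in members with 2 markers and 639 ± 289 in members with 3 or more. Edn1, encoding endothelin-1, ran the other way with 83.3 ± 44.4, 109 ± 34.5 and 208 ± 44.5 CPM. Timp4 followed Aqp1 with 393 ± 109, 298 ± 57.1 and 222 ± 35.8 CPM.

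Among genes outside the rule detected in at least 10% of thinned members, the 6 with the highest ratio of detection in members over all other barcodes were named as most like the markers. Fam181b led with 11.6% against 5.47%, a ratio of 2.11 (1.52 to 2.76 over 6 libraries). Edn1 had a ratio of 1.96, Sema7a (a membrane-anchored semaphorin) 1.91, St6galnac3 (a sialyltransferase) 1.85, Slc26a10 1.80 and Unc5b (a netrin receptor of arterial endothelium) 1.79. Each ratio exceeded 1 in every library, and the lowest was that of Edn1 with 1.20 in its weakest library.

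Levels in members were then set against 2282 capillary cells, which had Car4 and Rgcc and fewer than 2 markers, and against 1415 arterial cells, which had at least 3 of the 8 arterial genes. The cells were picked by transcripts, so no test was run and ratios of CPM within each library are given (pseudocount 10 CPM, genes with at least 20 CPM). Members lay between the other groups in a list of arterial genes outside the rule, a list drawn up with earlier results of these data known. Members could have at most 1 of the 8 arterial genes, and capillary cells had fewer than 2 markers. For genes that go with these, part of the order is thus set by the choice of cells. Against capillary cells, 14 of 21 measured arterial genes were higher in 6 of 6 libraries and 0 were lower, where 7.02% of 6322 genes were higher and 4.79% lower in this way. The median log2 ratio of the list was 0.78 ± 0.16 over libraries. Against arterial cells, 17 of 23 were lower in 6 of 6 libraries and 1 was higher, where 8.05% of 6409 genes were lower and 6.26% higher. Here the median was −0.84 ± 0.13. By mean ratio, 20 of 21 arterial genes measured in both comparisons stood above capillary and below arterial cells, and Slc26a10 was above both.

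Named arterial genes show the size of these steps. Edn1 was at 161 CPM in members, 28.6 in capillary cells and 426 in arterial cells, with log2 ratios of 2.19 (1.63 to 2.67 over libraries) and −1.34 (−1.79 to −0.996). Jag1, a Notch ligand, was at 57.7, 18.0 and 175 CPM in the same order. Eln, encoding elastin, was at 43.0, 8.80 and 122 CPM. Rbp7, a retinol-binding protein, was at 1354, 682 and 2157 CPM. Bmx, a kinase of arterial endothelium, was at 9.80 CPM in members and 80.9 in arterial cells, with a ratio of −2.18 (−3.23 to −1.43). In each case the members' ratio to both groups kept its sign in 6 of 6 libraries where it was measured. The Notch ligand Dll4 and the ephrin ligand Efnb2 did not share the step from capillary cells, with ratios of 0.02 (−0.19 to 0.29) and 0.22 (−0.95 to 0.96), although both were lower than in arterial cells in 6 of 6 libraries.

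Capillary genes were ordered the other way. Against capillary cells, 10 of 17 were lower in 6 of 6 libraries and 3 were higher, with a median log2 ratio of −0.26 ± 0.04. Against arterial cells, 13 of 17 were higher and 1 was lower, with a median of 0.56 ± 0.06. Aqp1 marked the widest step, with 906 CPM in members, 3363 in capillary cells and 265 in arterial cells. Timp4, an inhibitor of matrix metalloproteinases, was at 261, 622 and 126 CPM. Gpihbp1 was at 2360, 3274 and 1143 CPM, and the fatty acid carrier Fabp5 at 746, 946 and 367. By mean ratio, 11 of 17 capillary genes lay below capillary and above arterial cells, 5 lay above both and 1 was reversed. The chemokine Cxcl12 was among the 5: at 3249 CPM it was higher in members than in capillary cells (2055) and than in arterial cells (2284) in 6 of 6 libraries.

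**Figure D2:**
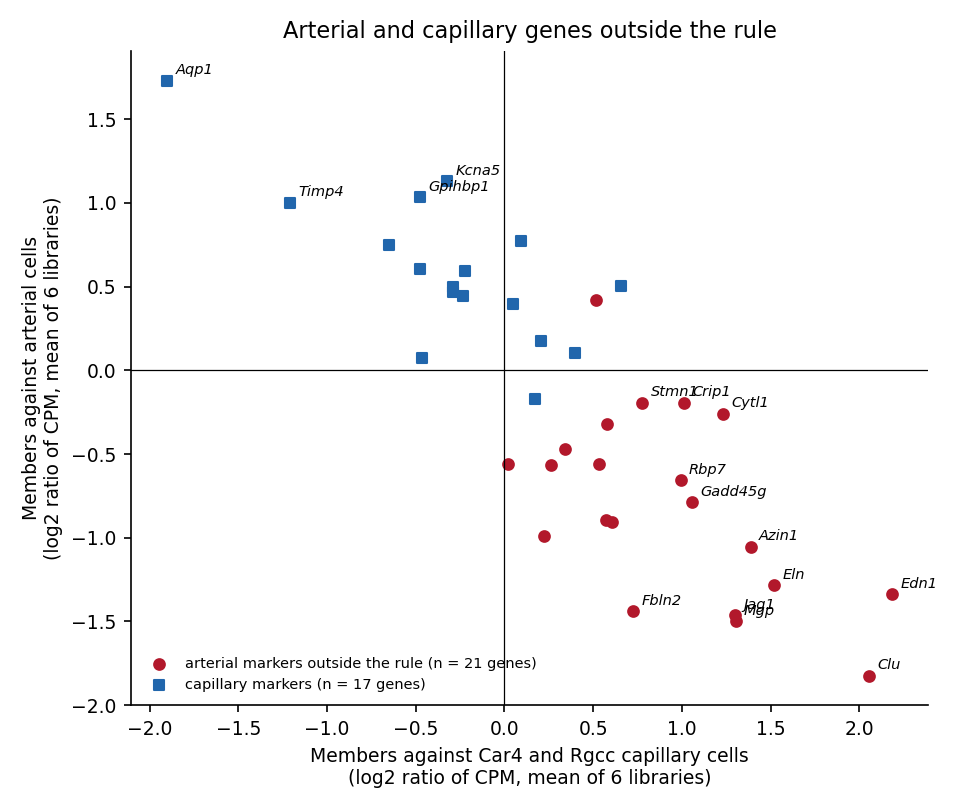
Mean log2 ratio of CPM over 6 libraries in members against capillary cells (x axis) and against arterial cells (y axis), with 1 point per gene for arterial genes outside the rule (red circles) and capillary genes (blue squares). Of 21 arterial genes, 20 fall in the lower right quadrant, above capillary and below arterial cells; Aqp1 lies at the far upper left.

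The capillary cells were chosen by Car4 and Rgcc, and the order depends on that choice. A further comparison used the 6777 barcodes that met the same exclusions but had fewer than 2 markers and not both Car4 and Rgcc. There, 8 of 18 capillary genes were higher in members in 6 of 6 libraries and 1 was lower. The median log2 ratio of the list was 0.07 ± 0.15 over libraries. Of 19 fatty acid genes, 6 were higher and 0 lower. In that comparison 8.92% of 6360 genes were higher and 5.74% lower. The arterial-list median against these barcodes was 0.53 ± 0.19 over libraries. Another 1196 barcodes met every other clause of the rule but had both Car4 and Rgcc. Against them, the arterial-list median was 0.38 ± 0.06, below the 0.78 against capillary cells. The capillary-list median was −0.24 ± 0.03 there.

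By function, genes of the BMP and TGF-β pathway, which acts in vessel maturation, were higher than in capillary cells in 6 of 6 libraries for 10 of 20 and lower for 0. Tgfb2, a ligand, was at 52.6 CPM in members, 0.811 in capillary cells and 167 in arterial cells. Smad6, an inhibitor of the pathway, was at 103, 38.9 and 219 CPM. The receptors Acvrl1 and Eng were higher than in capillary cells by log2 ratios of 0.42 and 0.40. The median of this list was 0.36 ± 0.12 over libraries against capillary cells and 0.32 ± 0.07 against the 6777 barcodes above. It was 0.12 ± 0.07 against the 1196 barcodes that met the rule apart from Car4 and Rgcc. Notch pathway genes had a median log2 ratio of 0.04 ± 0.13 over libraries against capillary cells. Of these 19 genes, 1 was higher (Jag1) and 2 were lower (Hes1 and Nrarp) in 6 of 6 libraries. Of 20 genes of fatty acid uptake and handling, 9 were lower and 1 was higher than in capillary cells, and 13 were higher and 1 was lower than in arterial cells, each in 6 of 6 libraries.

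The genes with the largest ratios overlapped in part between these comparisons: Aqp1, Trp53i11, Tnfrsf21 and Eps8l2 were among the leading genes of both. Against capillary cells, the 8 highest were Igfbp5, Tgfb2, Edn1, Cystm1, Pi16, Prss23, Eps8l2 and Fxyd5, with mean log2 ratios of 3.18 to 1.64, and the 8 lowest were Aqp1, Adm, Trp53i11, Cxcl9, Klra9, Tnfrsf21, Chchd10 and Timp4, from −1.90 to −1.21. Against arterial cells, the 8 highest were Aqp1, Trp53i11, Fmo1, Ccdc85a, Slco2b1, Tnfrsf21, Vwa1 and Klk8, from 1.73 to 1.33. The 8 lowest were Igfbp4, Col18a1, Bmx, Htra1, Rgs10, Eps8l2, Igf2 and Ace, the angiotensin-converting enzyme, from −2.40 to −1.89. The value of Igfbp5, an insulin-like growth factor binding protein, rests on few cells: 16 of 1613 young and 6 of 1916 aged members held at least 3 of its UMIs, and those 16 held 97.3% of all its young UMIs.

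At full depth, the share of members differed between the ages by less than the spread of libraries. Members made up 8.19%, 11.3% and 13.7% of kept barcodes in young replicates 1, 2 and 3 and 11.2%, 11.9% and 16.6% in aged replicates 1, 2 and 3. The exact 95% binomial intervals, which cover counting error only, ran from 7.26% to 9.20% for young replicate 1, from 9.47% to 13.2% for aged replicate 1 and from 15.9% to 17.4% for aged replicate 3. The groups overlapped, and within each replicate number the aged library was higher. Means were 11.1% ± 2.77 and 13.3% ± 2.95 (SD over 3 libraries, difference 2.19 percentage points, two-sided exact permutation p = 0.5). Every barcode was also thinned to 1000 UMIs, which leaves out 4910 young and 6070 aged barcodes of lower depth. The means were then 12.9% ± 2.63 and 15.5% ± 1.19 (difference 2.65 percentage points, exact permutation p = 0.2). The rule was applied to the thinned counts, so barcodes that failed it at full depth could count as members. Young replicate 1 had 296 thinned members, against 226 members with at least 1000 UMIs. For aged replicate 3 these numbers were 668 and 573. With all UMIs, the difference was 0.745 percentage points without young replicate 1 and 0.494 without aged replicate 3. With at least 3 markers asked for it was 0.283.

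**Figure D3:**
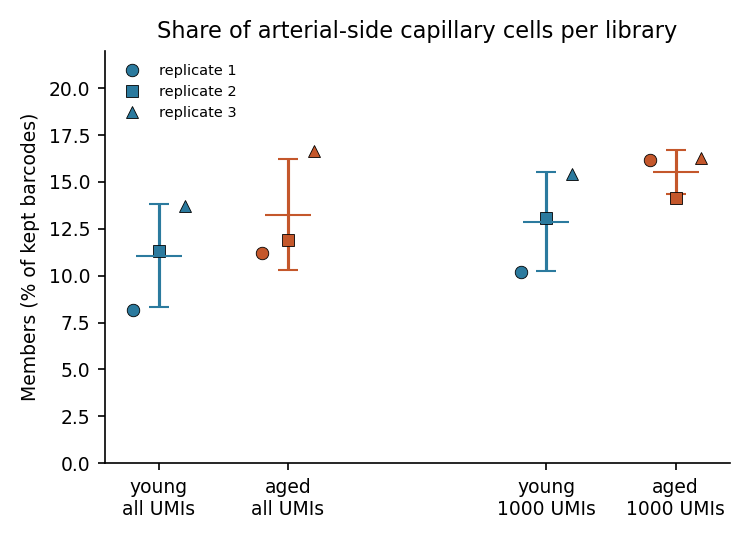
Members as a percentage of kept barcodes in each library (points, 1 shape per replicate number), with the group mean and SD of 3 libraries, for all UMIs (left) and after thinning to 1000 UMIs (right). Young libraries span 8.19% to 13.7% and aged libraries 11.2% to 16.6%, so the groups overlap.

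The rule's own genes were compared between the ages over all kept barcodes, where the choice of members plays no part. None of the 23 rule genes was called by edgeR at an adjusted p under 0.05. This test called 8 of 11591 genes, or 0.069%; of the rule genes, 6 had an unadjusted p under 0.05, and DESeq2 also called 0. The labels do not say what a replicate number marks. In members, deviations from the group means correlated at 0.232 to 0.313 between young and aged libraries of equal number. For that reason a fit with the number as a block is given as well. It called 152 genes, or 1.31%, and 2 of the 23 rule genes. Slc6a6 was at 377, 592 and 565 CPM in young and 622, 702 and 739 CPM in aged replicates 1 to 3. All aged libraries lay above all young ones, the blocked log2 fold change was 0.45 ± 0.10 (SE) and the adjusted p was 0.0440, while the fit without the block gave 0.43 and made no call. Vwf, a gene of large-vessel endothelium whose absence the rule asks for, was at 203, 74.9 and 103 CPM in young and 287, 109 and 154 CPM in aged libraries. The groups overlapped, but each aged library was above the young library of its number, with a blocked log2 fold change of 0.54 ± 0.08 and an adjusted p of 0.00432. Alpl was at 97.3, 121 and 123 CPM in young and 80.7, 80.4 and 99.4 in aged libraries (−0.39 ± 0.09, blocked adjusted p = 0.0631). Besides Slc6a6, 3 rule genes had no overlap, all of them lower in aged libraries and none called in these fits. Vegfc, a lymphangiogenic growth factor, was at 118, 148 and 136 CPM in young and 101, 95.3 and 105 in aged libraries (−0.41 ± 0.09, blocked adjusted p = 0.0584). Car4, a carbonic anhydrase, was at 314, 413 and 322 and then 262, 287 and 282 CPM (−0.33 ± 0.09, 0.119). Acta2, the smooth muscle actin, was at 244, 296 and 254 and then 59.5, 49.8 and 154 CPM (−1.69 ± 0.53, 0.4996), and without the block it was called only when aged replicate 3 was left out (−2.29, adjusted p = 0.000762). Glul, Hey1, Stmn2 and Sox17 had blocked log2 fold changes of −0.28, 0.25, 0.04 and 0.08 with adjusted p from 0.295 to 0.937.

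For the members themselves, UMIs were summed per library and tested for age over 5940 genes, with the rule's genes left out. The mix of markers in members differed between the ages, as given above, and the part of this mix in the values below was not tested. Without the block, 3 genes rose with age and 0 fell at an adjusted p under 0.05 in edgeR, which is 0.0505% of genes called; 115 higher and 79 lower genes had an unadjusted p under 0.05, and DESeq2 called 3 higher and 2 lower. With the block, 17 genes rose (0.286%) and 24 fell (0.404%), among them the 3 above. The blocked calls leaned on replicate 3, the pair with the most members and total UMIs, though the fewest UMIs per member. Without it 6 genes were called, of which 4 were among the 41. All 41 kept their direction, which is little support, since the remaining pairs had helped to select them. Between-library ranges did not overlap for 547 of 5940 genes, or 9.21%. Absence of overlap was a condition for naming genes by age, so it is no added support for genes named that way.

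The 3 genes that rose in both fits were each detected in at least 47 aged members. Csprs, a component of the repeated Sp100-rs locus, was at 7.20, 7.93 and 1.93 CPM in young and 103, 89.7 and 42.4 CPM in aged replicates 1 to 3, and its UMIs lay in 9 young and 113 aged members. Its log2 fold change was 3.80 ± 0.51 (adjusted p = 0.00607; blocked 5.73e-09). Ubd, which encodes the ubiquitin-like modifier FAT10 of the interferon and TNF response (mm10 chr17:37193892-37196095), was at 4.80, 0 and 0 CPM in young and 34.2, 29.2 and 26.5 CPM in aged libraries. Its 2 young UMIs came from 1 member and its 59 aged UMIs from 47 members. The log2 fold change was 4.55 ± 0.74 (adjusted p = 0.0274; blocked 0.000103). Klra9, a gene of the Ly49 receptor family (chr6:130178675-130193112), was at 11.99, 31.7 and 19.3 CPM in young and 85.4, 85.2 and 60.2 CPM in aged libraries (1.77 ± 0.31, adjusted p = 0.0451; blocked 0.000103). In all 3 genes every aged library lay above every young library. Reads of Csprs and of Klra9 could be shared with closely similar gene copies, which leaves their values uncertain in that respect. Without the block, Ubd lost its call when any library but young replicate 1 was left out (adjusted p 0.155 to 0.9997). Klra9 lost it in 4 of 6 such fits, those without young replicate 1 or 3 or aged replicate 1 or 2 (0.149 to 0.376).

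Ubd was the only gene called among 24 tested interferon-response genes, 21 of which had a log2 fold change above 0 (median 0.25, against 0.00 for all genes). In the list of class I antigen presentation, 2 of 19 genes rose in the blocked fit. H2-Q7, a nonclassical class I gene, was at 185, 99.1 and 81.9 CPM in young and 325, 157 and 177 CPM in aged libraries (blocked log2 fold change 0.90 ± 0.15, adjusted p = 0.000368). H2-Q6 was at 81.6, 67.4 and 26.01 CPM in young and 359, 83.0 and 55.6 CPM in aged libraries (1.24 ± 0.25, adjusted p = 0.00948). Both overlapped between the ages and were higher in each aged library than in its young counterpart; neither was called without the block, and the H2-Q genes are near-identical copies. Class II genes had a median log2 fold change of 1.63 with 0 of 4 called by edgeR in either fit; at an unadjusted p under 0.05 the count was 0 without and 1 with the block. Cd74, the class II chaperone, was at 437, 11.9 and 92.5 CPM in young and 820, 612 and 242 CPM in aged libraries, and a single member held 165 of its 284 young UMIs and another 264 of its 783 aged UMIs. Macrophage genes moved alongside, at 58.1 ± 94.8 CPM in young and 206 ± 193 in aged members (ranges 2.01 to 168 and 10.9 to 397). Their part in the class II values was not tested.

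Other genes that rose in the blocked fit had smaller steps, and none of them was called without the block. Of all 17 blocked rises, DESeq2 with the block called 3 (Csprs, Ubd and Klra9) and edgeR with the block but without replicate 3 called 1 (Csprs), so the genes below and H2-Q7 and H2-Q6 had no call in either. Bnip3, a hypoxia-inducible mitophagy receptor, was at 57.6, 93.2 and 78.0 CPM in young and 114, 162 and 127 CPM in aged libraries (blocked log2 fold change 0.78 ± 0.17, adjusted p = 0.0163). Ankrd37, another hypoxia-inducible gene, was at 72.0, 39.7 and 91.5 CPM in young and 137, 110 and 138 CPM in aged libraries (0.86 ± 0.19, adjusted p = 0.0132). PISD, the symbol the files give for a phosphatidylserine decarboxylase, was at 79.2, 115 and 95.4 CPM and then 199, 200 and 179 CPM (0.95 ± 0.16, adjusted p = 0.000324). For these 3 genes the age groups did not overlap. Ppfibp1, Gstm2 (a glutathione transferase), Rassf9, Cirbp (a cold-inducible RNA-binding protein) and Rpl22l1 also had no overlap, with blocked log2 fold changes of 0.77, 0.66, 0.64, 0.61 and 0.53. Sox18, an endothelial transcription factor, was at 343, 313 and 202 CPM in young and 598, 390 and 287 CPM in aged libraries, which overlap (0.53 ± 0.12, adjusted p = 0.0201). The remaining rises, in Fmo2, Gata3 and Slc39a1, were singled out after their values were seen, and had blocked log2 fold changes of 0.95, 1.498 and 0.67.

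**Figure D4:**
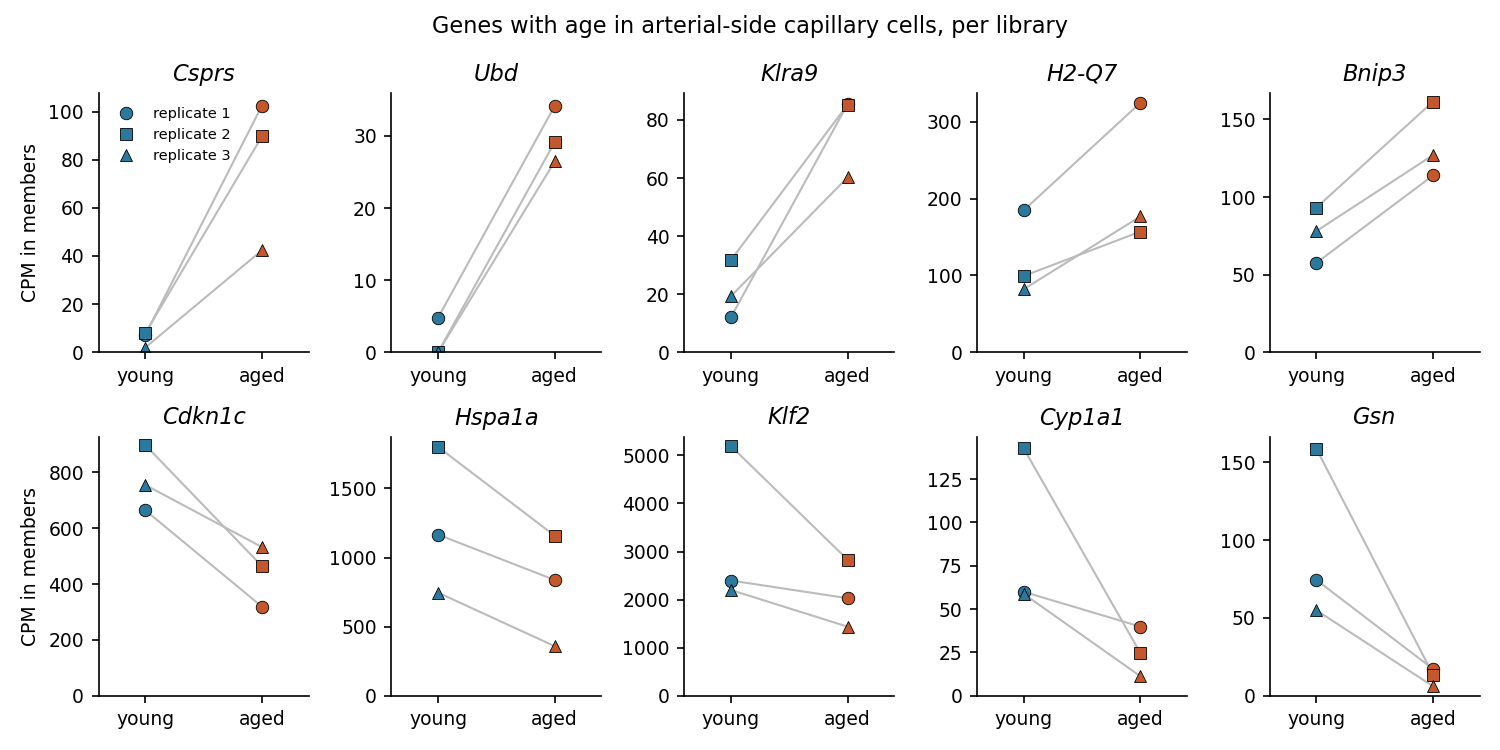
CPM in members of each library for 5 genes that rose and 5 that fell with age in the blocked fit; lines join young (blue) and aged (orange) libraries of the same replicate number, and every y axis starts at 0. The lines of all 10 genes run in 1 direction in 3 of 3 pairs, while young and aged points overlap for H2-Q7, Hspa1a and Klf2.

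Of the 24 genes that fell in the blocked fit, Cdkn1c was the only 1 called in all 5 further blocked fits. Those were without replicate pair 1, 2 or 3, with each gene counted once per cell, and without members that hold 2 or more endocardial-list genes. Cdkn1c, an imprinted cyclin-dependent kinase inhibitor (chr7:143458339-143461050), was at 664, 898 and 755 CPM in young and 319, 464 and 533 CPM in aged libraries. All aged libraries lay below all young ones, and 803 young and 655 aged members held a UMI. The log2 fold change was −0.80 ± 0.13 with the block (adjusted p = 0.000171) and −0.79 ± 0.20 without it (0.572). Over those 5 fits its adjusted p ran from 0.000214 to 0.0458. Cyp1a1, a target of the aryl hydrocarbon receptor, was at 59.97, 143 and 58.8 CPM in young and 39.9, 24.7 and 11.2 CPM in aged libraries (−2.15 ± 0.28, blocked adjusted p = 4.18e-06; 0.572 without the block). Its UMIs lay in 91 young and 27 aged members. Scgb3a1, a secretoglobin, was at 43.2, 51.6 and 66.5 CPM in young and 11.4, 17.9 and 29.1 CPM in aged libraries (−1.31 ± 0.26, blocked adjusted p = 0.00448).

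Several genes of the response to stress and flow fell, again in the blocked fit alone. Of 15 tested heat shock genes, 3 fell and 0 rose, and the median log2 fold change of the list was −0.31, against 0.01 for all genes in that fit. Hspa1a, the inducible HSP70, was at 1166, 1800 and 746 CPM in young and 837, 1157 and 358 CPM in aged libraries (−0.74 ± 0.12, blocked adjusted p = 0.000332). Hspa8, the constitutive HSC70, was at 1583, 2177 and 1246 CPM and then 1031, 1314 and 960 CPM (−0.57 ± 0.11, adjusted p = 0.00531). Hspb1, the small heat shock protein HSP27, was at 1696, 831 and 1015 CPM and then 986, 633 and 778 CPM (−0.51 ± 0.12, adjusted p = 0.0221). Young and aged libraries overlapped for all 3 genes, and each aged library was below the young library of its number. Replicates 1 to 3 of the young group differed among themselves as widely: Hspa1a ranged from 746 to 1800 CPM there. Hspa1a has a near-identical neighbour, Hspa1b, so its reads could be divided between them.

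Heat shock genes are switched on by heat shock factor through elements built of inverted GAA units, and the promoter bases are shown because Hspa1a and Hspb1 both fell in the blocked fit. The windows are the 150 bases before the RefSeq transcription start (GRCm38.p6), at chr17:34972157-34972306 on the minus strand for Hspa1a and chr5:135887769-135887918 on the plus strand for Hspb1, 5′ to 3′. Capitals mark the motif GAANNTTC, which reads the same on both strands.
Hspa1a: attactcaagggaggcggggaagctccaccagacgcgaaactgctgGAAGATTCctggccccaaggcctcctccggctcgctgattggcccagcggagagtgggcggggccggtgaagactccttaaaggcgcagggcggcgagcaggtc
Hspb1: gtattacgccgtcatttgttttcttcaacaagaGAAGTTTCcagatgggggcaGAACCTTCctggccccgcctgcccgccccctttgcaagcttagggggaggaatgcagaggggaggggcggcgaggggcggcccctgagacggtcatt
The motif begins 104 bases before the start in Hspa1a and 117 and 97 bases before it in Hspb1. It occurs in the 250 bases before the start in 6.69% of all 32851 RefSeq promoters of the table and in 6 of the 18 promoters that the table holds for 12 of the 16 listed heat shock genes. Hspa8 has no entry. A match describes these letters only.

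Among 12 shear-stress genes, the flow-induced factors Klf2 and Klf4 fell and none rose with the block. Klf2 was at 2396, 5195 and 2198 CPM in young and 2028, 2831 and 1437 CPM in aged libraries, which overlap (−0.58 ± 0.12, blocked adjusted p = 0.00449). Klf4 was at 578, 749.5 and 607 CPM in young and 393, 431 and 487 CPM in aged libraries without overlap (−0.54 ± 0.12, adjusted p = 0.0190). Fos was the 1 of 19 immediate early genes that fell (−0.58 ± 0.12, adjusted p = 0.00931), and Tsc22d3, a glucocorticoid target, the 1 of 12 glucocorticoid and circadian genes (−0.67 ± 0.15, adjusted p = 0.0143). None of these 4 was called without the block. Without replicate 3, none of Hspa1a, Hspa8, Hspb1, Klf2, Klf4, Fos and Tsc22d3 was called with the block (adjusted p 0.249 to 0.631). All 7 kept their direction in the remaining pairs, which had helped to select them.

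The widest falls rested on few cells. Gsn, encoding gelsolin, was at 74.4, 159 and 54.9 CPM in young and 17.1, 13.5 and 5.96 CPM in aged libraries without overlap (−3.17 ± 0.30, blocked adjusted p = 4.76e-09; −3.36 ± 0.54 and 0.0789 without the block). Yet its 168 young UMIs came from 19 members, and 94.6% of them from members with at least 2 genes of the endocardial list, which numbered 44 of 1613 young and 40 of 1916 aged members. Igfbp5 was at 777, 268 and 103 CPM in young and 222, 24.7 and 27.1 CPM in aged libraries, and 95.1% of its young UMIs lay in those members. The same held for 90.4% of young UMIs of Cytl1, 86.2% of Pdlim3, 84.8% of Nbl1 and 59.8% of Emp3. Cytl1 is itself on the endocardial list, and Gsn on the fibroblast list. Dcn and Lum are on both of these lists, and Mgp and Cytl1 are also on the arterial list. Of 147 young UMIs of Dcn, 89.8% lay in those members, so the list alone does not tell what kind of cell they are. The fibroblast list summed to 235 ± 153 CPM in young and 86.0 ± 27.2 in aged members, and the endocardial list to 482 ± 139 and 321 ± 141 CPM. The part of these cells in the falls of Gsn, Igfbp5, Cytl1, Nbl1 and Pdlim3 was not tested.

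Leaving those 84 members out, or counting each gene at most once per cell, was chosen after seeing the data. Without them, 9 genes rose and 10 fell in the blocked fit, of which 18 were among the 41. Counted once per cell, 9 rose and 4 fell, of which 11 were among the 41; this count also compresses genes found in most cells. Hspa1a, Cdkn1c, Cyp1a1 and Rsrp1 (a splicing-related protein gene) were the falls called under both. Gsn, Igfbp5, Cytl1, Nbl1 and Pdlim3 had too few counts to be tested in either. Tppp3, Fxyd5 and Crip1 were not called in either, Emp3 was not called without those members (−0.51, adjusted p = 0.799) and had too few counts once per cell, and Crip1 moved from −0.53 to −0.03 when counted once per cell.

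**Figure D5:**
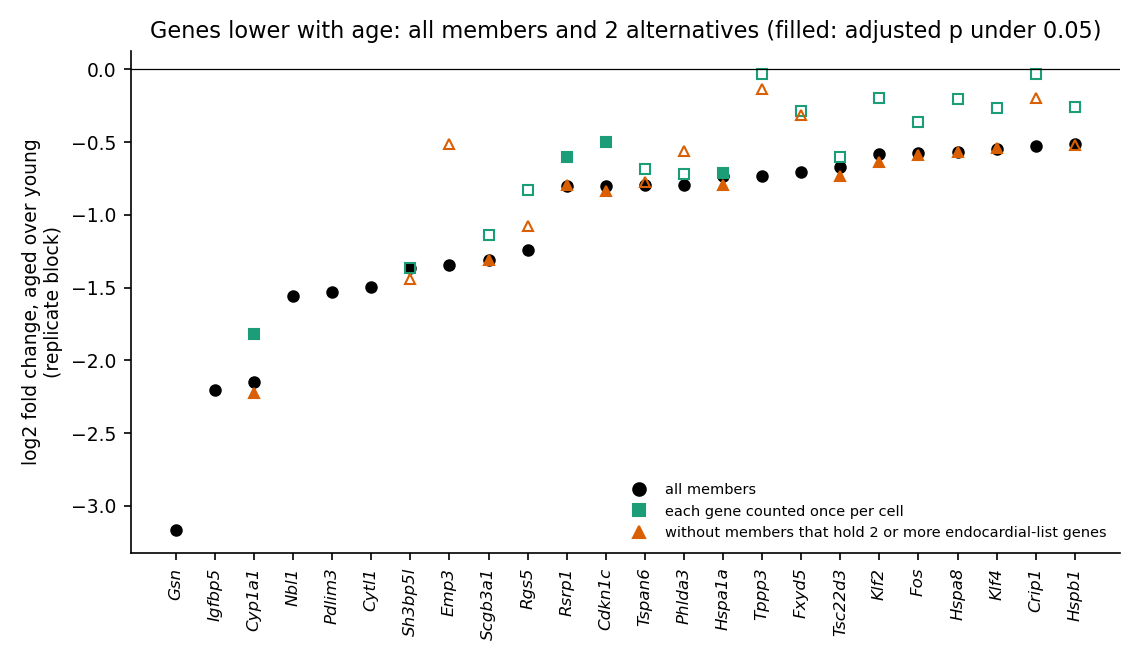
Blocked log2 fold change (aged over young) of the 24 genes that fell with age, for all members (circles), with each gene counted once per cell (squares) and without members that hold 2 or more endocardial-list genes (triangles); filled symbols have an adjusted p under 0.05, and a missing symbol means too few counts. Gsn, Igfbp5, Nbl1, Pdlim3 and Cytl1 have a circle only, while Cyp1a1, Rsrp1, Cdkn1c and Hspa1a are filled in all 3.

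Rgs5 was also lower in aged members, at 101, 93.2 and 151 CPM in young and 28.5, 22.4 and 78.7 CPM in aged libraries without overlap (−1.24 ± 0.21, blocked adjusted p = 0.000324; not called without the block). It is a pericyte gene, and the pericyte and smooth muscle list that contains it summed to 106 to 192 CPM in young and 27.2 to 102 in aged members. Pdgfrb of that list had 10 young and 2 aged UMIs and Kcnj8 had 21 and 3. The part of pericyte RNA in the Rgs5 value was not tested. Tspan6 (−0.79), Phlda3 (−0.79) and Sh3bp5l (−1.37) also fell without overlap, with blocked adjusted p of 0.0191, 0.0407 and 0.0387.

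Arterial and metabolic programmes gave few or no calls. Of 21 arterial genes outside the rule, 0 rose and 2 fell with the block, Cytl1 and Crip1. In edgeR, 0 of 19 Notch, 0 of 18 BMP and TGF-β, 0 of 19 fatty acid, 0 of 17 capillary and 0 of 22 respiratory chain genes were called in either fit, and the 5 genes that DESeq2 called were all among the 41. At an unadjusted p under 0.05 the counts were 0 of 19, 2 of 18, 1 of 19, 1 of 17 and 0 of 22 without the block, in that order of lists, and 0, 2, 5, 3 and 0 with it. Of the 21 arterial genes, 2 had an unadjusted p under 0.05 without and 7 with the block. The respiratory chain list was one-sided, with 2 of 22 genes above 0 and a median of −0.14. The medians of these lists lay between −0.14 and 0.05 on the log2 scale without the block. Edn1 was at 110, 147 and 172 CPM in young and 182, 155 and 198 CPM in aged libraries, which overlap (0.30 ± 0.19 without the block). Aqp1 was at 1422, 1075 and 777 CPM in young and 632, 873 and 645 CPM in aged libraries (blocked −0.55 ± 0.14, adjusted p = 0.0658). The cell-cycle inhibitor Cdkn1a had a blocked log2 fold change of −0.46 ± 0.13 (adjusted p = 0.122), and Cdkn2a had 4 young and 5 aged UMIs. Pecam1 and Cdh5, carried by all endothelial cells, had log2 fold changes of 0.03 ± 0.18 and 0.05 ± 0.19.

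Whether age acted differently in members than in the neighbouring cells was tested with limma on differences within each library. Without the block, 0 of 5572 genes (0%) differed between members and capillary cells and 0 of 5365 (0%) between members and arterial cells; 226 and 265 genes had an unadjusted p under 0.05. With the block, 1 gene passed against capillary cells (0.0179%) and 3 against arterial cells (0.0559%). Rbp7 had a log2 change with age of −0.14 in members and 0.49 in capillary cells, a difference of −0.63 ± 0.10 (adjusted p = 0.0144). Ctla2a, a cathepsin inhibitor gene, changed by 0.40 in members and 1.21 in arterial cells, a difference of −0.82 ± 0.15 (adjusted p = 0.0110). Cytl1 and Emp3 differed from arterial cells by −3.23 ± 0.40 and −2.71 ± 0.46. When endocardial-list barcodes were left out, the Rbp7 difference was −0.69 ± 0.10 (adjusted p = 0.00149), and 0 genes passed against arterial cells. There the Ctla2a difference was −0.70 ± 0.16 (adjusted p = 0.169) and that of Emp3 −1.74 ± 0.71 (0.893), and Cytl1 had too few counts.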

How the data were processed

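The deposited files hold UMI counts per gene and barcode (27998 genes, 6 libraries), not normalized. Per the submitters' processing notes, the tools were Cell Ranger, bcl2fastq, Seurat 2.3.4 and R 3.4.2, and the build was mm10; cell calling and annotation release: not given in the sources used here. Members and gene lists were chosen with earlier results of these data known. Cells were selected and thinned in Python 3.11.15 (numpy 2.4.6, scipy 1.17.1, pandas 2.3.3). Counts summed per library were tested in R 4.3.3 with edgeR 4.0.16 (TMM factors, filterByExpr, robust quasi-likelihood test) and, as an alternative, DESeq2 1.42.0; differences between cell groups used limma 3.58.1 on log2 CPM (prior count 1). Every adjusted p is Benjamini-Hochberg adjusted over all genes tested, from edgeR unless another tool is named. CPM of age comparisons use TMM-scaled totals, other CPM plain totals. The edgeR test was checked on simulated counts with a fixed dispersion and no effect of the replicate number. The check therefore does not cover variation shared by replicate number.

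The labels number libraries 1 to 3 in each age group but do not say what a number marks. Replicate 3 had the most members in both groups, so library size is also shared by number. Deviations from the group means in members correlated at 0.29, 0.232 and 0.313 for equal numbers and at −0.241 to 0.0201 for other pairs; all of the former exceed 0.1, so the number was used as a block where it changed a call. Every pair of libraries differed by more than counting noise (chi-square divided by its degrees of freedom, 1.73 to 5.19). Since animals are not named in the labels, a p-value reflects only how libraries vary, and part of that may be technical. Barcodes carry only running numbers, so sharing between libraries could not be counted by name, but 0 barcodes had the same counts in 2 libraries. No doublet caller was run; an alternative left out barcodes above the 98th percentile of UMIs.

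Genes named for age had an adjusted p under 0.05 in either fit, a mean of 10 CPM or more and age groups that did not overlap, up to 12 per direction by fold, predicted-gene symbols left out. Up to 4 members of each functional list, the rule's genes and Pecam1, Cdh5, Ptprc, Pdpn, Cdkn2a, Cdkn1a and Ddx3y were added; Igfbp5, Nbl1, Rsrp1, Fmo2, Gata3 and Slc39a1 were named after their values were seen. Against other cells, the 8 genes with the largest mean ratio in each direction were named among those alike in 6 of 6 libraries.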

Additional observations from a re-analysis of the deposited data

Results flagged for a closer look

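In 4 cases, differences between age changes passed a test of the difference itself. With the replicate block, the age change of Rbp7 in members minus that in capillary cells was −0.63 on the log2 scale. In members minus arterial cells, the differences were −3.23 for Cytl1, −2.71 for Emp3 and −0.82 for Ctla2a. None of the 4 passed without the block in limma (adjusted p 0.935, 0.890, 0.179 and 0.218). Cytl1 and Emp3 UMIs of young members lay mostly in members with at least 2 endocardial-list genes, 90.4% and 59.8%. Counted once per cell, the difference of Rbp7 was −0.47 (adjusted p = 0.0161) and that of Ctla2a was −0.50 (0.840), in the blocked fits.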

How the results depend on the processing

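Counting each gene once per cell, leaving out endocardial-list cells, and the replicate block combined with another choice of members were chosen after seeing the data. The share of members was higher in aged libraries under every alternative run; no call was possible for it, since the exact p cannot go below 0.1 for 3 against 3 or 0.25 with the replicate block. The depth of members reversed without young replicate 1 (33.8) and without aged replicate 3 (7.42); leaving out 1 library gave −173 to 33.8 UMIs. Against 3 genes called with age in members, DESeq2 called 5, no low-count filter 26, at least 3 markers 1, barcodes with Car4 and Rgcc kept 5, pan-endothelial members without other markers 0, leaving out barcodes of most UMIs 1, 130 members per library 0 and each gene once per cell 5. Leaving out 1 library gave 1 to 7 calls. With the replicate block, 41 genes were called, with DESeq2 13, and 6 to 58 without a replicate pair. The block gave 23 with at least 3 markers, 48 with Car4 and Rgcc barcodes kept, 45 in pan-endothelial members without other markers, 29 without barcodes of most UMIs, 12 with 130 members per library, 13 once per cell and 19 without endocardial-list members.

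Of the rule genes over all barcodes, the replicate block called 2, and leaving out 1 library called 0 to 1. Differences of age change between members and capillary cells gave 1 call with the block, also once per cell and without endocardial-list cells, and 0 to 1 without 1 library; against arterial cells the block gave 3, and leaving out 1 library 0 to 6. Thinning to 1000 UMIs moved the capillary-list median to −0.20 against capillary and 0.67 against arterial cells. Uncalled values near 0 changed sign: Ddx3y (−0.15 to 0.33 leaving out 1 library, −0.15 without young replicate 3, −0.05 without aged replicate 2, −0.22 in pan-endothelial members without other markers, −0.17 with 130 members per library), Cdh5 (−0.037 to 0.15 leaving out 1 library, −0.03 without young replicate 2, −0.0044 without barcodes of most UMIs, −0.025 once per cell) and Pecam1 (−0.0013 with no filter, −0.043 to 0.081 leaving out 1 library, −0.043 without young replicate 2, −0.00495 with at least 3 markers). The cause of these shifts was not tested. Depth limits the genes tested: 5940 passed the low-count filter in members.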
